A study of Mus musculus with 35 samples.

Results

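The interferon-stimulated genes described here are 39 genes that cells raise when an interferon binds its receptor. They were taken as a list of names, not by a threshold on measured values, and were found by symbol among the 48709 genes counted in each library. All 39 were found and all 39 passed the filter on low counts, beside 13819 genes tested in all. RNA was measured in 35 libraries of OT-I cytotoxic T lymphocytes (CTLs), which are CD8+ mouse T cells with a transgenic receptor for the ovalbumin peptide SIINFEKL on MHC class I. The cells had been primed through CD3 and CD28 and expanded in IL-2, and the study asked how acidity changes their response to that cytokine. The 7 groups had 5 biological replicates each: cells at 0 h, and cells kept for 24 h in medium at pH 7.4, pH 7 or pH 6.6, acidified with HCl, in the absence of IL-2 or in the presence of 200 IU/mL IL-2. The labels of these groups name no antigen and no added interferon, dead cells were removed over Ficoll before RNA extraction, and every group shared the same OT-I transgene and the same priming.

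Type I interferons bind a receptor of IFNAR1 and IFNAR2 chains, whose kinases TYK2 and JAK1 phosphorylate STAT2, which with IRF9 is part of a complex that binds the interferon-stimulated response element of target promoters. Interferon-gamma, a product of activated CTLs themselves, binds IFNGR1 and IFNGR2 and signals through JAK1 and JAK2 to promoters that carry a different site, named GAS. The products detect foreign nucleic acid, block steps of viral growth, attack the vacuoles of intracellular microbes, load MHC class I with peptides, or damp the pathway again. The 39 genes were grouped by these roles into 4 sensors of nucleic acid, 4 transcription factors, 17 antiviral effectors, 6 genes of ISG15 and of ubiquitin or ADP-ribose transfer, 6 interferon-inducible GTPases and the 2 chains of the peptide transporter TAP.

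Several members lie beside each other in the genome (GRCm38). Ifit1, Ifit2 and Ifit3 lay within 99.3 kb of chromosome 19, the 4 Gbp members within 144 kb of chromosome 3, and Parp9, Parp14 and Dtx3l within 140 kb of chromosome 16. Oas2 with Oas3 and Oasl1 with Oasl2 lay on chromosome 5, and Tap1 with Tap2 within 28.8 kb of chromosome 17. Neighbouring members are therefore not independent in position.

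Promoter windows, from 250 bases before to 50 after the annotated start, were found for 30 of the 39 members in RefSeq (GRCm38.p6). The core of the interferon-stimulated response element was searched as GAAANNGAAA on both strands and stood in windows of 15 of these 30 members (50.0%), against 3.99% of all 27025 genes with windows of the same length. GAS, searched as TTCNNNGAA, reads the same on both strands and stood in 8 of 30 (26.7%), against 9.55% of all these genes. Bst2, Gbp5, Gbp7 and Igtp held both, and in Bst2 a match of one overlapped a match of the other. The sequences below are shown because Isg15 and Ifit1 had the largest falls at pH 6.6 with IL-2 and Bst2 was called lower with IL-2 but not without it, and because Irgm1, Gbp2 and Igtp show the same letters before GTPase genes. Each is the stretch around its matches, 5′ to 3′ on the gene's own strand, and capitals mark the letters of the response element core, written as its reverse complement where the match is on the opposite strand.
Isg15, chr4:156200845-156200926, minus strand: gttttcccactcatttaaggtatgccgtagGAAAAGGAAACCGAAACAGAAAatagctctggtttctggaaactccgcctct
Ifit1, chr19:34640755-34640843, plus strand: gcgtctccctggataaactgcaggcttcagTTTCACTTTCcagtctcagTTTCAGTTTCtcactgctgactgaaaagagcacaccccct
Bst2, chr8:71537557-71537632, minus strand: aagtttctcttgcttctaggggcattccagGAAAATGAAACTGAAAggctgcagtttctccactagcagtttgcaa
Irgm1, chr11:48871405-48871480, minus strand: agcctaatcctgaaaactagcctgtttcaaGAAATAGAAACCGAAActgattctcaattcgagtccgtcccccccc
Gbp2, chr3:142620574-142620643, plus strand: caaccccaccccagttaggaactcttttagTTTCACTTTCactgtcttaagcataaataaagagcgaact
Igtp, chr11:58199492-58199561, plus strand: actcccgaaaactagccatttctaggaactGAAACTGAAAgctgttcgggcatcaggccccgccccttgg

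Isg15 held 3 overlapping cores in a row, the first of them 78 bases before the start, and Ifit1 held 2 separate cores, the first 104 bases before it. Irf1 held no core but a GAS match 90 bases before its start, shown here with the GAS letters in capitals because Irf1 moved apart from most members.
Irf1, chr11:53769894-53769962, plus strand: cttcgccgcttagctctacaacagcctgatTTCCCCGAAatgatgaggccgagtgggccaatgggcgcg

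A match says only that the letters are there, and its absence only that they are not in this window. Windows for Parp14, Usp18, Oas2, Rtp4, Zbp1, Tap2, Mx1, Dhx58 and Parp9 were not used here.

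The libraries held 16721319 to 34033340 reads on genes (median 24730020). The cells carried the markers of CTLs: all 6 genes of a CD8 list (Cd3e, Cd3g, Cd8a, Cd8b1, Gzmb, Prf1) were present in every group. Levels are in TMM-scaled CPM, the reads of a gene scaled to libraries of equal size. The 6 summed to 9074 to 11677 CPM at pH 7.4 and 2634 to 3973 CPM at pH 6.6 with IL-2, and 2385 to 2752 and 1970.0 to 2305 CPM in its absence. With IL-2, the genes of the lytic granule were lower, Gzmb (log2 fold change -3.27 at pH 6.6 against pH 7.4) and Prf1 (-2.01). Cd3e (0.50) and Cd8a (0.16) had log2 fold changes above 0 in that setting. The means of Cd8b1 (255 to 270 CPM) and Cd3g (538 to 536 CPM) moved little there. The markers are described as levels, and no call is made for them. Without IL-2, the acid group had lower means of Cd8a (955 to 719 CPM), Cd3g (712 to 483 CPM) and Cd8b1 (389 to 236 CPM). Gzmb (124 to 86.5 CPM) and Prf1 (28.7 to 17.4 CPM) were lower there too, and Cd3e was higher (423 to 592 CPM). The sums of 3 B cell, 4 myeloid and 2 CD4 T cell markers ran up to 0.381, 3.35 and 5.5 CPM. The means that reached 1 CPM in a group were those of Itgam among the myeloid markers (1.86 and 2.35 CPM at pH 7.4 and pH 7 without IL-2), Foxp3 (3.37 CPM at 0 h) and Cd4 (1.79 and 1.10 CPM at pH 7 and pH 6.6 with IL-2). Siglech, a defining plasmacytoid dendritic cell gene, had 0 counts in every library; the rest of that list is Tcf4 and Bst2, itself a member. The 3 NK cell markers summed to 52.5 to 56.1 CPM at pH 7.4 and 22.1 to 37.3 CPM at pH 6.6 with IL-2, with Ncr1 at no more than 2 counts in a library. The sums of the CD8 and NK cell lists were lower at pH 6.6, as most members were, and their part in the results was not tested. In such bulk libraries, fewer cells that carry a transcript and less transcript per cell cannot be told apart.

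Averaged over the 39 members on a log2 CPM scale, the level was lowest at pH 6.6. It was 6.18 ± 0.10 (SD, n = 5) at pH 7.4, 6.35 ± 0.16 at pH 7 and 5.13 ± 0.17 at pH 6.6 with IL-2. In its absence the means were 6.12 ± 0.14, 5.81 ± 0.08 and 4.88 ± 0.08 in the same order, and at 0 h the mean was 5.82 ± 0.15. At pH 6.6 no library of either kind reached the lowest library of any other group: the highest at pH 6.6 stood at 5.35 and the lowest at 0 h at 5.69. Among the 6 groups kept for 24 h, the neighbours pH 7.4 and pH 7 with IL-2 overlapped, as did pH 7.4 with and without IL-2 and pH 6.6 with and without IL-2. Replicate 1 was the highest library in both the pH 7.4 group (6.34) and the pH 7 group (6.62) with IL-2, above 6.22 and 6.34 for the next replicate.

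**Figure D1:**
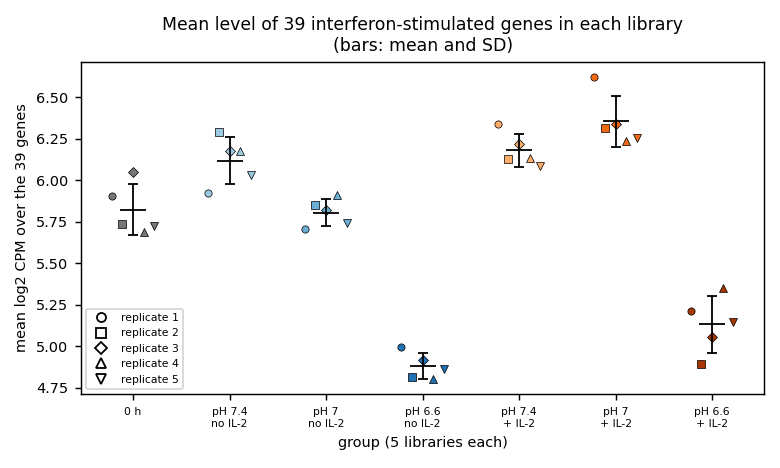
Mean log2 CPM over the 39 interferon-stimulated genes (y axis) in each library (points, 5 per group) of the 7 groups (x axis), with bars for the mean and SD. The pH 6.6 libraries lie between 4.81 and 5.35, below all libraries of the other groups.

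Members were abundant or scarce to very different degrees. Per kilobase of exon, Igtp, a GTPase of the vacuole attack system also named Irgm3, was highest at pH 7.4 with IL-2 (411 ± 43.2 CPM per kb), followed by Gbp2 (231 ± 39.2) and Bst2 (117 ± 14.1). Rsad2 (0.641 ± 0.153), Oasl1 (0.672 ± 0.0679) and Ifi44 (0.811 ± 0.317) were lowest, all of them antiviral effectors. At pH 6.6 without IL-2, Tap1 had become the highest member (115 ± 7.34 CPM per kb), and Oasl1 the lowest (0.132 ± 0.0732). At pH 6.6 the raw counts per library were only 9 to 28 for Ifit1, 10 to 32 for Ifit3, 15 to 35 for Isg15 and 4 to 16 for Oasl1, so their fold changes carry the larger errors. By group mean, 22 of the 39 members peaked at pH 7 with IL-2, and 10 peaked at pH 7.4 without IL-2, while 27 were lowest at pH 6.6 without IL-2 and 9 at 0 h. The shares of all genes with such peaks or lows were not counted. At pH 7 with IL-2, replicate 1 stood far above the rest for some members, such as Isg15 (14.8 CPM) and Ifit1 (16.65 CPM). Some of the peaks there thus rest in part on 1 library. The ratio of the highest to the lowest group mean was 20.1 for Oasl2 and 15.9 for Ifit3, but 1.26 for Tap1 and 1.33 for Ddx58.

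The first comparison asked what 24 h at pH 6.6 did against pH 7.4 in the presence of IL-2. Of the 39 members, 33 fell (84.6%) and 4 rose, and 2 did not pass the test; over all tested genes 40.9% were called lower and 35.4% higher. The median log2 fold change of the members was -0.82 against -0.07 for all genes. All 17 antiviral effectors fell. Those that rose were Trim25, Dtx3l, Gbp5 and Tap1, and those not called were Ddx58 and Irf1. Calls rest on edgeR's quasi-likelihood test with a Benjamini-Hochberg adjusted p under 0.05 over all tested genes. Of the 37 calls, 29 were kept under every alternative tried apart from a fold threshold, and 2 (Ifit1 and Oasl1) were not tested under a stricter filter. The 6 others ended without 1 replicate: Ifih1 without any of the 5 (log2 fold change -0.07 without replicate 2 to -0.24 without replicate 4), Irf9 (-0.19) and Rnf213 (-0.36) without replicate 1, Tap2 without replicate 1 (-0.25) or 2 (-0.25), Tap1 without replicate 4 (0.19), and Trim25 without replicate 3 (0.14), 4 (0.16) or 5 (0.11). Irf1 was called higher without replicate 1, at 0.37.

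In the absence of IL-2 the same change of pH lowered 34 members and raised 0, against 35.4% of all genes lower and 31.6% higher. By edgeR 0 were higher at an unadjusted p under 0.05, while DESeq2 called 2 higher, Trim25 and Gbp5. The median log2 fold change was -1.16 for the members and -0.03 for all genes. Bst2, Trim25, Dtx3l, Gbp5 and Tap1 did not pass the test. The 2 comparisons share no library, but they share a fit and the same replicate numbers and are not independent. In both, 32 members fell, which is 32 of the 33 that fell with IL-2 and of the 34 that fell without it. Ddx58 lost its call without replicate 4 (-0.16) and Tap2 without replicates 1 (-0.26), 2 (-0.23), 3 (-0.16) or 5 (-0.22), and Gbp5 was called higher without replicate 4 (0.31).

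**Figure D2:**
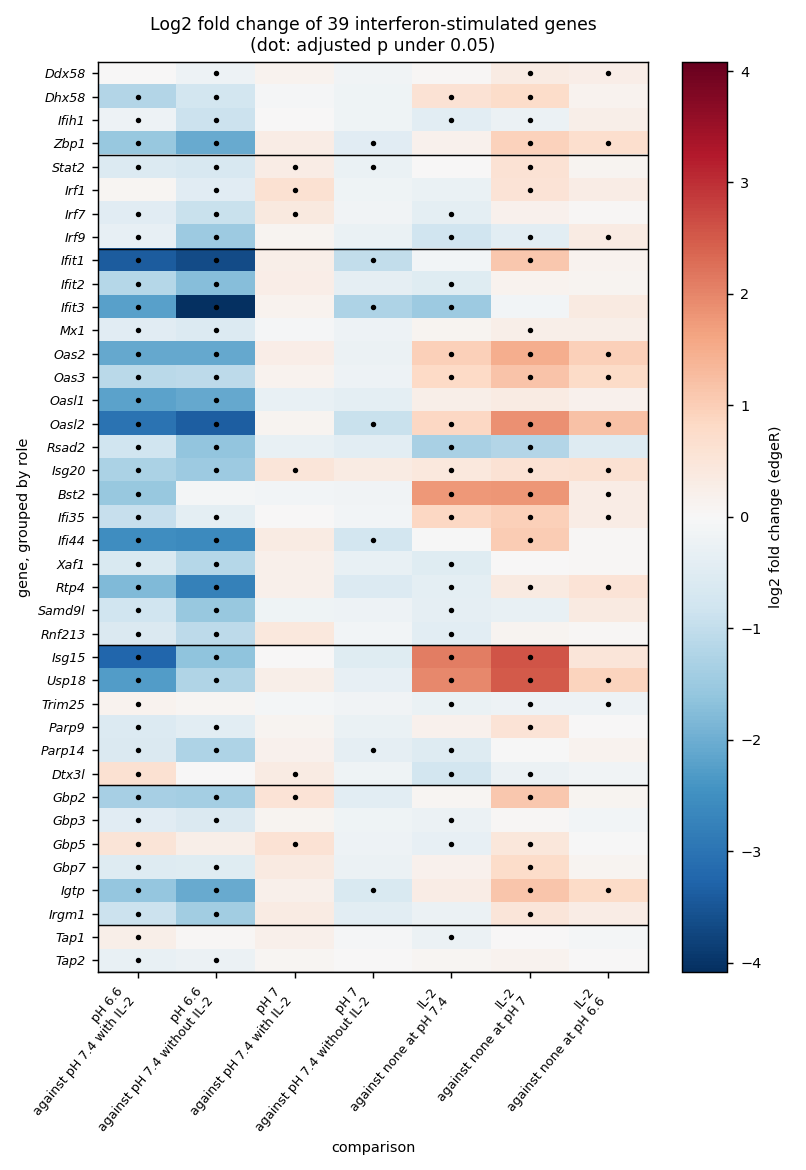
Log2 fold change (color, red higher and blue lower in the first-named group) of each of the 39 members (rows, ordered by role, with lines between role groups) in 7 comparisons (columns), where a dot marks an adjusted p under 0.05. The 2 columns for pH 6.6 are mostly blue, with medians of -0.82 with IL-2 and -1.16 without, while the columns for IL-2 hold both colors, with Isg15 and Usp18 at pH 7 the deepest red.

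The sensors recognize foreign or misplaced nucleic acid. Zbp1, which binds left-handed Z-form nucleic acid and can start necroptosis, stood at 191, 152, 168, 179.6 and 178 CPM in replicates 1 to 5 at pH 7.4 with IL-2. At pH 6.6 with IL-2 it was 62.7, 44.9, 51.3, 77.2 and 63.2 CPM in the same order. Every pH 6.6 library thus lay below every pH 7.4 library, and Zbp1 fell 2.92-fold (log2 fold change -1.54 ± 0.12, edgeR adjusted p = 3.55e-13; ± after a log2 fold change is its standard error). Without IL-2, Zbp1 went from 113, 184, 162, 167 and 144 CPM to 39.5, 33.2, 38.1, 39.7 and 34.5 CPM, again with no overlap (log2 fold change -2.06 ± 0.12, edgeR adjusted p = 3.01e-15). Dhx58, known as LGP2, a regulator of the RNA helicase sensors, was 23.6, 31.6, 31.8, 30.5 and 37.2 CPM at pH 7.4 and 13.2, 13, 12, 14.4 and 14.1 CPM at pH 6.6 with IL-2. Its values without IL-2 were 16.7, 23.8, 22.5, 17.8 and 20.7 CPM and 11.3, 12.2, 11.6, 13.4 and 11.6 CPM. Dhx58 fell in both settings, by 1.21 on the log2 scale with IL-2 (log2 fold change -1.21 ± 0.11, edgeR adjusted p = 5.57e-12) and by less without it (log2 fold change -0.75 ± 0.11, edgeR adjusted p = 3.08e-07). The helicases that bind viral RNA moved less with IL-2: Ifih1, or MDA5, had a log2 fold change of -0.21 ± 0.10 with IL-2, a call that every left-out replicate ended, and fell by 0.88 without it. Ddx58, or RIG-I, was at 0.02 ± 0.06 with IL-2 (edgeR adjusted p = 0.775) and -0.21 ± 0.06 without.

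The transcription factors relay the receptor signal to the promoters. Irf9, the DNA-binding chain of its complex with STAT2, stood at 103, 83.6, 90.0, 89.5 and 95.4 CPM at pH 7.4 and 65.9, 62.4, 63.6, 92.6 and 81.5 CPM at pH 6.6 with IL-2. Kept without IL-2, the cells had 151, 173, 163, 163 and 158 CPM at pH 7.4 and 53.6, 54.4, 56.5, 61.5 and 60.9 CPM at pH 6.6. With IL-2, replicates 4 and 5 at pH 6.6 reached into or near the pH 7.4 range (log2 fold change -0.34 ± 0.09, edgeR adjusted p = 0.000924), whereas without IL-2 the groups lay far apart (log2 fold change -1.50 ± 0.09, edgeR adjusted p = 2.33e-15). Stat2, its partner, was more even, with 117, 108, 116, 109 and 118 CPM at pH 7.4 and 74.2, 75.4, 75.7, 80.1 and 77.5 CPM at pH 6.6 with IL-2. Without IL-2 the values were 107, 123, 117, 112 and 104 CPM and 65.8, 76, 75.9, 70.0 and 67.4 CPM. Stat2 fell to a similar extent in both settings, with no overlap in either (log2 fold change -0.57 ± 0.07, edgeR adjusted p = 4.12e-09 with IL-2; log2 fold change -0.66 ± 0.07, edgeR adjusted p = 3.49e-10 without). Irf7, which drives type I interferon genes, fell by 0.46 with IL-2 and by 0.90 without it. Irf1, an early target of interferon-gamma, spread widely between replicates. It was 410.0, 278, 289, 321 and 331 CPM at pH 7.4 and 227, 276, 259, 541 and 472 CPM at pH 6.6 with IL-2, where replicates 4 and 5 stood above the whole pH 7.4 group and replicates 1 to 3 below it. It was not called with IL-2 (log2 fold change 0.07 ± 0.17, edgeR adjusted p = 0.706) and fell without it (log2 fold change -0.48 ± 0.17, edgeR adjusted p = 0.0157).

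Among the 17 antiviral effectors the median log2 fold change at pH 6.6 was -1.30 with IL-2, where all 17 fell, and -1.61 without IL-2, where 16 fell. Ifit1, which binds viral RNA that lacks host cap methylation, stood at 9.29, 11.5, 10.3, 10.1 and 7.09 CPM at pH 7.4 and 0.809, 0.560, 0.881, 1.15 and 1.17 CPM at pH 6.6 with IL-2. In the absence of IL-2 it stood at 5.52, 13.2, 11.6, 13.1 and 9.25 CPM and 1.09, 0.719, 0.818, 0.368 and 1.13 CPM. It had the largest fall of all members with IL-2, 10.5-fold (log2 fold change -3.39 ± 0.29, edgeR adjusted p = 2.81e-12), and fell 12.6-fold without it (log2 fold change -3.66 ± 0.29, edgeR adjusted p = 1.98e-12). Ifit3 was 9.11, 13.7, 12.6, 10.1 and 11.3 CPM at pH 7.4 and 1.35, 0.392, 0.909, 0.409 and 0.517 CPM at pH 6.6 without IL-2, the largest fall in that setting (log2 fold change -4.08 ± 0.26, edgeR adjusted p = 7.11e-15). With IL-2 it started lower, at 5.72, 4.20, 4.72, 3.43 and 2.89 CPM, and reached 1.56, 0.560, 0.629, 1.23 and 0.541 CPM (log2 fold change -2.23 ± 0.26, edgeR adjusted p = 2.85e-09). Only 48.8% of the Ifit3 exon sequence was unique in the transcriptome, the rest being shared with its copy Ifit3b, so its level is uncertain.

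Oasl2, an oligoadenylate synthetase-like protein, was 19.5, 12.5, 17.9, 14.5 and 13.5 CPM at pH 7.4 and 3.64, 0.720, 1.26, 2.26 and 2.04 CPM at pH 6.6 with IL-2. Levels without IL-2 were 6.91, 12, 9.66, 7.47 and 6.55 CPM and 1.64, 0.850, 0.682, 0.491 and 0.564 CPM. It fell 8.03-fold with IL-2 (log2 fold change -3.01 ± 0.25, edgeR adjusted p = 1.04e-12) and 10.3-fold without (log2 fold change -3.36 ± 0.28, edgeR adjusted p = 4.4e-12), with no overlap in either setting. The oligoadenylate synthetases Oas2 and Oas3, whose products activate RNase L, fell by 2.09 and 1.10 on the log2 scale with IL-2 and by 2.10 and 1.06 without it. Bst2, or tetherin, which holds budding virions at the cell surface, behaved otherwise. It was 91.1, 102, 97.1, 118 and 119.8 CPM at pH 7.4 and 31.5, 34.8, 31.8, 42.9 and 41.7 CPM at pH 6.6 with IL-2, but 28.1, 35.6, 29.3, 28.7 and 33.2 CPM and 25.4, 25.6, 31.3, 35.7 and 30.5 CPM without. It fell with IL-2 (log2 fold change -1.53 ± 0.10, edgeR adjusted p = 1.01e-14), while in its absence Bst2 was low at either pH and the groups overlapped (log2 fold change -0.06 ± 0.11, edgeR adjusted p = 0.601). The other effectors ran with IL-2 from -2.54 for Ifi44 and -2.18 for Oasl1 to -0.59 for Rnf213 and -0.45 for Mx1. Rnf213 encodes a giant ubiquitin ligase, and Mx1 belongs to the genes of dynamin-like GTPases. Rsad2, or viperin, fell by 0.82 with IL-2 and by 1.61 without it, and Isg20, an exonuclease, by 1.30 and 1.47.

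Isg15 encodes a ubiquitin-like protein that is joined to other proteins, and Usp18 the protease that removes it and also damps the type I receptor. With IL-2, Isg15 stood at 11.7, 9.86, 10.3, 11.2 and 10.3 CPM at pH 7.4 and 1.04, 0.760, 1.34, 1.44 and 1.08 CPM at pH 6.6. Without IL-2 it stood at 2.23, 3.61, 2.58, 1.96 and 1.97 CPM and 0.757, 0.751, 0.682, 0.900 and 0.892 CPM. It fell 9.36-fold with IL-2 (log2 fold change -3.23 ± 0.20, edgeR adjusted p = 1.13e-15) and 3.1-fold without it (log2 fold change -1.63 ± 0.23, edgeR adjusted p = 2.22e-07), and no pH 6.6 library overlapped its pH 7.4 group. Usp18 was 55.4, 37.5, 41.6, 37.4 and 39.8 CPM at pH 7.4 and 15.8, 6.72, 6.54, 8.63 and 7.33 CPM at pH 6.6 with IL-2. Without IL-2 the values were 14.2, 12.8, 10.1, 9.55 and 8.22 CPM and 11.7, 4.80, 3.18, 2.74 and 2.82 CPM, where replicate 1 at pH 6.6 lay within the pH 7.4 range. In each of these groups replicate 1 was the highest library. Usp18 fell 4.89-fold with IL-2 (log2 fold change -2.29 ± 0.16, edgeR adjusted p = 2.61e-14) and 2.34-fold without it (log2 fold change -1.23 ± 0.17, edgeR adjusted p = 2.21e-07).

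The remaining genes of that group divided. Dtx3l, a ubiquitin ligase, rose at pH 6.6 with IL-2, from 352, 304, 310.4, 260.2 and 246 CPM to 413, 475, 537, 413 and 420.4 CPM, without overlap (log2 fold change 0.62 ± 0.10, edgeR adjusted p = 1.41e-06). Without IL-2 it was 419.8, 537, 520.0, 541 and 462 CPM at pH 7.4 and 467, 537, 561, 443 and 492 CPM at pH 6.6, with overlap (log2 fold change 0.01 ± 0.10, edgeR adjusted p = 0.925). Parp9, whose protein forms a complex with that of Dtx3l, fell by 0.57 with IL-2 and by 0.41 without it. The 2 genes overlap on opposite strands over 8.0% of the Dtx3l and 9.40% of the Parp9 exon bases, and whether reads were counted by strand is not given in the sources used here. Parp14, which adds single ADP-ribose units, fell by 0.59 and 1.26, and Trim25, the ubiquitin ligase that acts on RIG-I, was at 0.14 ± 0.06 with IL-2, a call that ended without replicate 3, 4 or 5, and at 0.09 ± 0.06 without it.

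The GTPases of the Gbp and Irg families gather on vacuoles that hold microbes. Igtp stood at 979, 789, 805, 752 and 833 CPM at pH 7.4 and 259.9, 211, 213, 389 and 322 CPM at pH 6.6 with IL-2. In the absence of IL-2 it was 561, 871, 578, 764 and 605 CPM and 154, 166, 169, 164 and 153 CPM. Igtp fell 3.01-fold (log2 fold change -1.59 ± 0.15, edgeR adjusted p = 5.47e-11) and 4.16-fold (log2 fold change -2.06 ± 0.16, edgeR adjusted p = 6.71e-13), respectively, and no pH 6.6 library reached the pH 7.4 range. Gbp2 was 753, 532, 574, 520.2 and 524 CPM and 200.0, 193, 233, 279 and 238 CPM with IL-2, and 341, 737, 462, 755 and 493 CPM and 186, 203, 228, 207 and 219 CPM without. Its fall was close to the same in both settings (log2 fold change -1.36 ± 0.18, edgeR adjusted p = 3.46e-08 with IL-2; log2 fold change -1.40 ± 0.18, edgeR adjusted p = 4.01e-08 without). Gbp5, which aids the release of microbial ligands to inflammasomes, went the other way with IL-2, from 99.2, 70.1, 76.4, 70.1 and 67.8 CPM to 101, 111, 127, 114 and 102 CPM (log2 fold change 0.54 ± 0.11, edgeR adjusted p = 7.68e-05). Without IL-2, Gbp5 was 86.1, 104, 94.3, 110.4 and 84.5 CPM and 100.3, 122, 133, 101 and 102 CPM, with overlap (log2 fold change 0.22 ± 0.11, edgeR adjusted p = 0.079). Gbp5 lies beside Gbp2, Gbp3 and Gbp7 on chromosome 3, of which all 3 fell in both settings, by 1.36, 0.46 and 0.54 with IL-2. Gbp7 and Igtp had 87.3% and 88.2% unique exon sequence, and reads of the shared sequence may be missing from their counts.

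Tap1 and Tap2, the chains that carry peptides into the endoplasmic reticulum for MHC class I, had small changes at pH 6.6. Tap1 was 536, 479.8, 484, 516 and 521 CPM at pH 7.4 and 563, 596, 560.1, 655 and 586 CPM at pH 6.6 with IL-2, a rise of 1.17-fold (log2 fold change 0.22 ± 0.08, edgeR adjusted p = 0.0134) that lost its call without replicate 4. Without IL-2 it was 566, 626, 628, 548 and 650.0 CPM and 599, 583, 619.6, 677 and 661 CPM (log2 fold change 0.06 ± 0.08, edgeR adjusted p = 0.547). Tap2 was 289, 302, 281, 337 and 304 CPM and 230.1, 248, 202, 286 and 249 CPM with IL-2, with replicate 4 of the pH 6.6 group inside the pH 7.4 range (log2 fold change -0.32 ± 0.10, edgeR adjusted p = 0.00578). In cells without IL-2, Tap2 was at 257, 287, 301, 249 and 334 CPM and 213, 221, 224, 281 and 274 CPM (log2 fold change -0.24 ± 0.10, edgeR adjusted p = 0.0409), and its groups overlapped. The call of Tap2 ended without replicate 1 or 2 with IL-2 (-0.25 each), and 18.5% of its exon bases overlap a gene on the opposite strand.

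**Figure D3:**
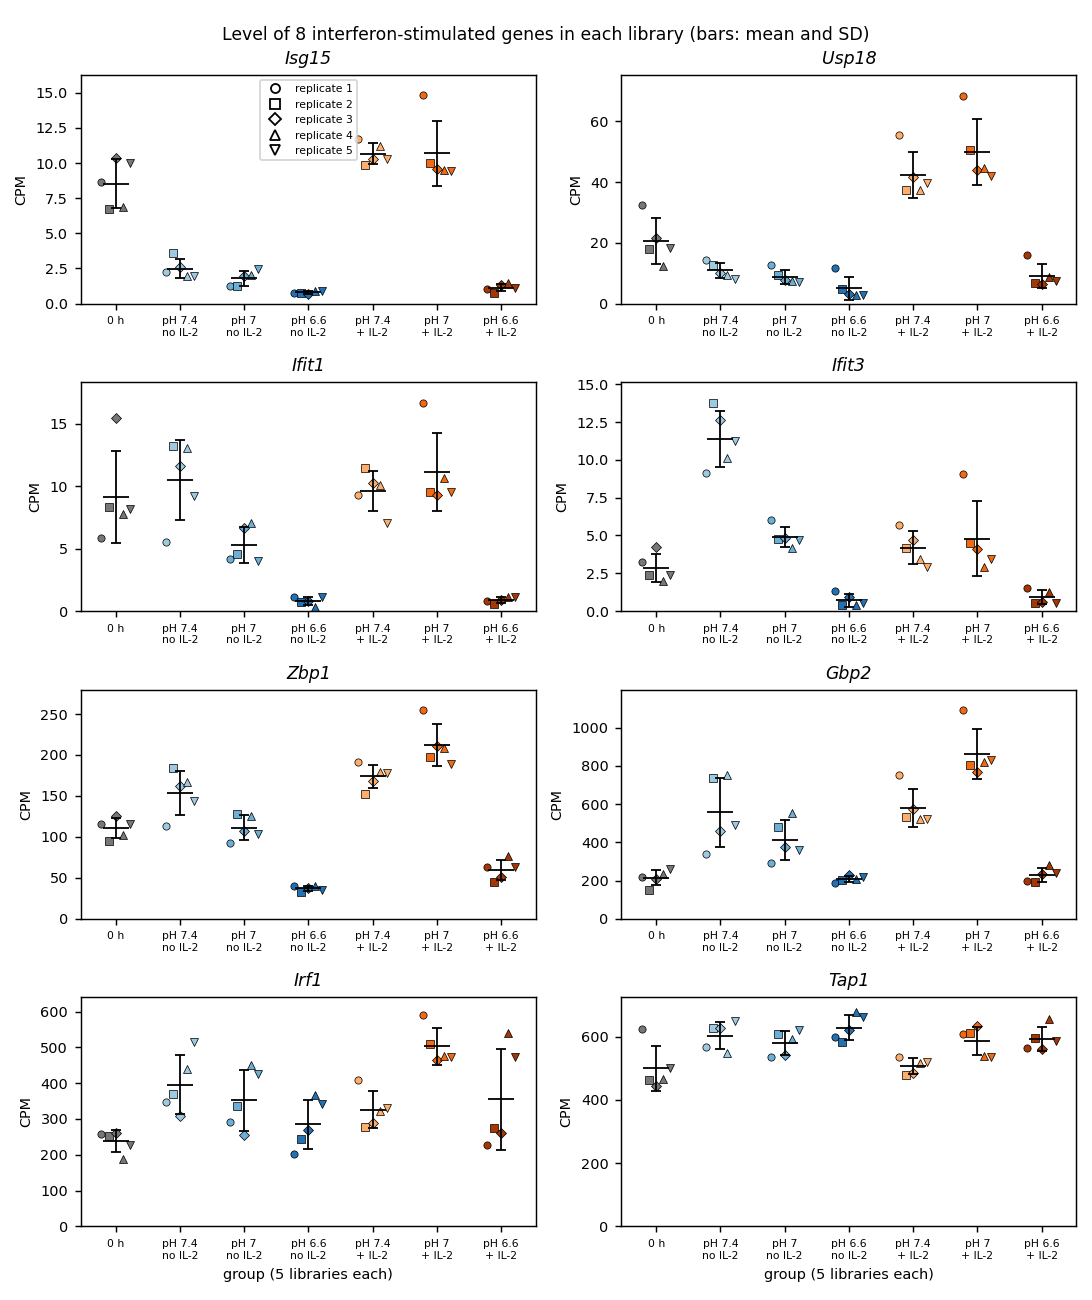
Level in CPM (y axes, each on its own linear scale) of Isg15, Usp18, Ifit1, Ifit3, Zbp1, Gbp2, Irf1 and Tap1 in each of the 5 libraries (points) of the 7 groups (x axes), with bars for the mean and SD. Isg15 and Usp18 are low in the 3 groups kept without IL-2 and at pH 6.6 with it, Ifit3 is highest at pH 7.4 without IL-2 (9.11 to 13.7 CPM), and Tap1 differs little between groups.

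Whether the effect of pH 6.6 depended on IL-2 was tested by the interaction, the effect with IL-2 minus the effect without it. It was above 0 for 15 members and below 0 for 5, against 34.3% and 32.8% of all genes, with a median of 0.23 for the members and 0.04 for all genes. The members that fell in both settings were of 3 kinds. The 12 that fell in both settings with an interaction above 0, and thus fell less with IL-2, included Ifit3 (difference 1.86 ± 0.38 on the log2 scale, edgeR adjusted p = 8.53e-05), Irf9 (difference 1.16 ± 0.12 on the log2 scale, edgeR adjusted p = 9.48e-10) and Rtp4 (difference 0.96 ± 0.24 on the log2 scale, edgeR adjusted p = 0.000949). The 4 that fell in both settings but more with IL-2 were Isg15 (difference -1.59 ± 0.32 on the log2 scale, edgeR adjusted p = 5.23e-05), Usp18 (difference -1.06 ± 0.24 on the log2 scale, edgeR adjusted p = 0.000198), Ifi35 (difference -0.53 ± 0.13 on the log2 scale, edgeR adjusted p = 0.000567) and Dhx58 (difference -0.46 ± 0.15 on the log2 scale, edgeR adjusted p = 0.00854). Bst2, which fell in the presence of IL-2 and was not called in its absence, also had an interaction below 0 (difference -1.47 ± 0.15 on the log2 scale, edgeR adjusted p = 2.12e-10). Ddx58, Irf1 and Dtx3l, which did not fall in both settings, had an interaction above 0. In 16 more that fell in both settings, Ifit1, Oasl2, Oas2, Gbp2 and Igtp among them, the interaction was not called; for Ifit1 it was 0.27 ± 0.43 and for Gbp2 0.04 ± 0.25, and such values do not show that the effects were equal. The calls of 8 members ended when a replicate was left out: Ddx58 without replicate 3 (0.25), 4 (0.16) or 5 (0.18), Irf1 without 2 (0.64), 4 (0.41) or 5 (0.39), Irf7 without 2 (0.40), 3 (0.41) or 5 (0.40), Ifit2 without 4 (0.42) or 5 (0.55), Irgm1 without 4 (0.34) or 5 (0.48), Zbp1 without 4 (0.42), Dhx58 without 2 (-0.40) and Rsad2 without 3 (0.61). Of the 20 calls 12 were kept under every alternative but the fold threshold, and without replicate 1 the number called was 25.

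**Figure D4:**
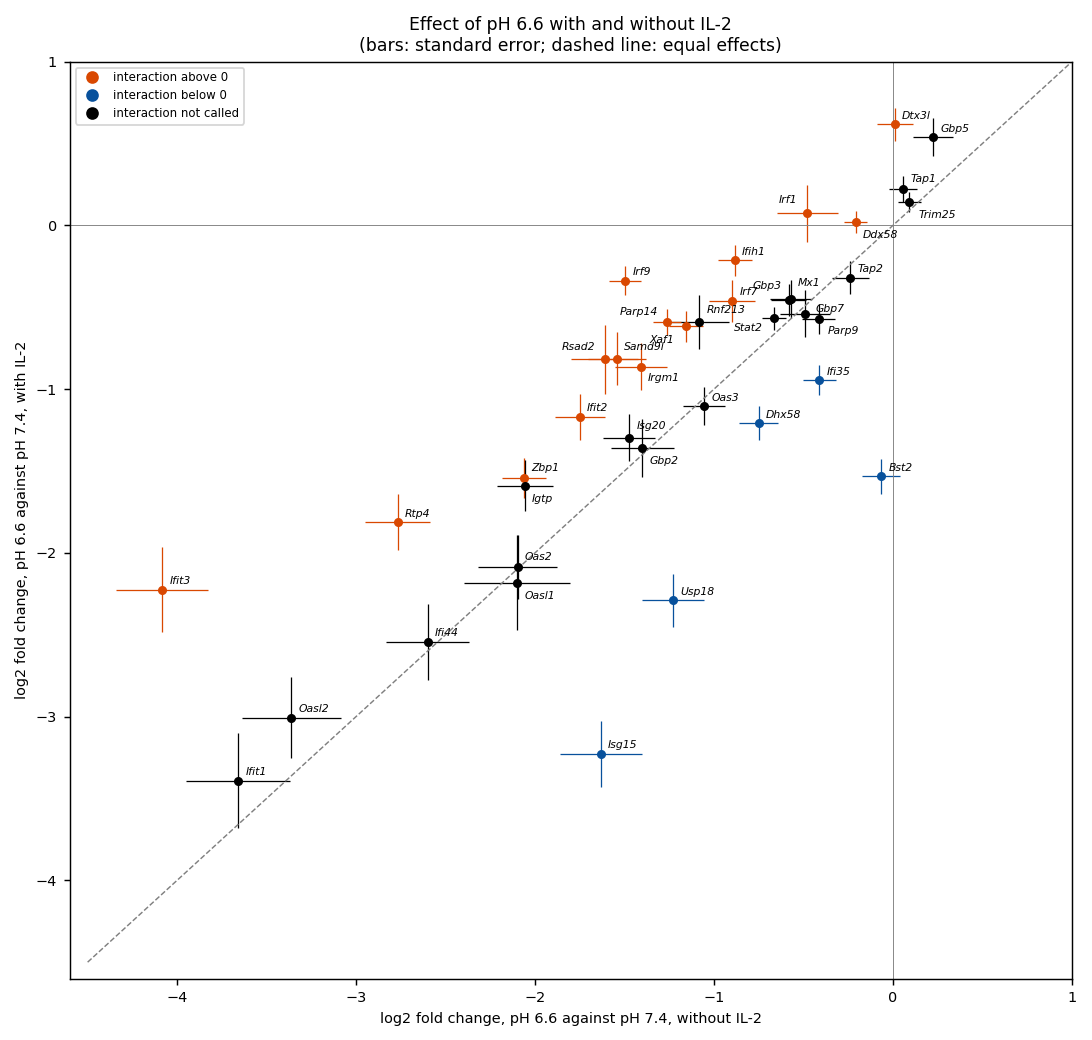
Log2 fold change at pH 6.6 against pH 7.4 without IL-2 (x axis) and with IL-2 (y axis) for the 39 members, with standard errors as bars and a dashed line where both are equal. Isg15, Usp18 and Bst2 lie farthest below the line and Ifit3 and Irf9 farthest above it, with interactions of -1.59, -1.06, -1.47, 1.86 and 1.16.

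The effect of IL-2 itself was compared at each pH, using libraries that the comparisons above share. At pH 7.4 the members divided. With IL-2, 9 members were higher and 16 lower, against 39.3% of all genes higher and 41.1% lower; 16 of 39 is 41.0%, so the number lower was that of the background and the number higher, at 23.1%, was below it. Isg15 was 2.47 ± 0.687 CPM (mean ± SD, n = 5) without IL-2 and 10.7 ± 0.755 CPM with it (log2 fold change 2.10 ± 0.18, edgeR adjusted p = 2.25e-12). Usp18 was 11 ± 2.46 CPM and 42.3 ± 7.51 CPM (log2 fold change 1.96 ± 0.16, edgeR adjusted p = 5.07e-13), and Bst2 31 ± 3.27 CPM and 106 ± 12.7 CPM (log2 fold change 1.76 ± 0.11, edgeR adjusted p = 1.82e-16). In the other direction, Ifit3 was 11.4 ± 1.87 CPM without IL-2 and 4.19 ± 1.10 CPM with it (log2 fold change -1.49 ± 0.21, edgeR adjusted p = 7.31e-08), and Irf9 162 ± 8.15 CPM and 92.3 ± 7.25 CPM (log2 fold change -0.81 ± 0.09, edgeR adjusted p = 4.74e-10). None of these 5 genes overlapped between its groups. Since the interaction uses the same pH 7.4 libraries, these values are not separate evidence for it.

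At pH 7 the members leaned to the higher side with IL-2: 23 were higher and 5 lower, against 37.6% and 39.5% of all genes. The median log2 fold change of members was 0.47. Isg15 was 1.79 ± 0.549 CPM without and 10.7 ± 2.32 CPM with IL-2 (log2 fold change 2.58 ± 0.19, edgeR adjusted p = 3.69e-14), and Usp18 8.87 ± 2.31 CPM and 49.9 ± 10.8 CPM (log2 fold change 2.50 ± 0.16, edgeR adjusted p = 1.99e-15). Zbp1, Igtp and Gbp2, which were not called at pH 7.4, were higher with IL-2 at pH 7, by 0.93 ± 0.12, 1.14 ± 0.15 and 1.09 ± 0.17 on the log2 scale; whether the effect differed between pH 7 and pH 7.4 was not tested. The 5 that were lower were Dtx3l, Ifih1, Irf9, Rsad2 and Trim25. At pH 6.6, 12 members were higher with IL-2 and 1, Trim25, was lower, against 13.2% and 10.6% of all genes. The median was 0.17, and the number called was 20 in a fit of only these 2 groups, where the share of all genes was not counted. Isg15 was 0.797 ± 0.0958 CPM without and 1.13 ± 0.268 CPM with IL-2 at pH 6.6 and was not called there (log2 fold change 0.50 ± 0.26, edgeR adjusted p = 0.156). Usp18 was 5.04 ± 3.79 CPM and 9.01 ± 3.90 CPM (log2 fold change 0.90 ± 0.18, edgeR adjusted p = 0.000252), and replicate 1 was the highest library in both groups. The call of Usp18 at pH 6.6 ended without the replicate block (0.82).

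At the milder step to pH 7 the called members were higher with IL-2 and lower without it, in comparisons that share a fit but no library. With IL-2, 7 were higher than at pH 7.4 and 0 lower, against 9.15% and 9.83% of all genes, with a median log2 fold change of 0.20. At an unadjusted p under 0.05, 0 members were lower by edgeR, and DESeq2 called 0 lower. The 7 were Stat2, Irf1, Irf7, Isg20, Dtx3l, Gbp2 and Gbp5. Irf1 was 589, 509, 464, 477 and 474 CPM at pH 7 with IL-2, above every pH 7.4 library (log2 fold change 0.63 ± 0.17, edgeR adjusted p = 0.00968). Gbp2 was 1095, 806, 769, 818 and 834 CPM (log2 fold change 0.57 ± 0.17, edgeR adjusted p = 0.0195) and Stat2 156, 138, 149.6, 127 and 135 CPM (log2 fold change 0.31 ± 0.07, edgeR adjusted p = 0.00123), both again above the whole pH 7.4 group. Stat2 and Gbp5 kept their calls under every alternative but the fold threshold. The call of Irf1 ended without replicate 2 (0.56) and that of Gbp2 without replicate 3 (0.61), 4 (0.55) or 5 (0.55). The count fell to 4 without replicate 2 and to 3 without replicate 3, and was 20 in a fit of only these 2 groups. The share of all genes called was not counted in those fits.

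Without IL-2, 8 members were lower at pH 7 and 0 higher, against 0.318% of all genes lower and 1.36% higher, with a median log2 fold change of -0.24 against 0.00 for all genes. Isg20 was the 1 member higher at an unadjusted p under 0.05 by edgeR, and DESeq2 called 0 higher. The 8 were Zbp1, Stat2, Ifit1, Ifit3, Oasl2, Ifi44, Parp14 and Igtp. Ifit3 went from 9.11, 13.7, 12.6, 10.1 and 11.3 CPM to 6.04, 4.76, 4.84, 4.18 and 4.67 CPM, without overlap (log2 fold change -1.25 ± 0.20, edgeR adjusted p = 0.000823). Ifit1 was 4.20, 4.59, 6.63, 7.05 and 4.01 CPM at pH 7, and of the pH 7.4 libraries replicate 1 alone lay in that range (log2 fold change -0.99 ± 0.23, edgeR adjusted p = 0.0152). Oasl2 was 5.12, 4.95, 4.62, 4.72 and 3.39 CPM, below the whole pH 7.4 group (log2 fold change -0.91 ± 0.22, edgeR adjusted p = 0.0228). Apart from that of Ifit3, these calls were less secure, and those of 7 members ended when 1 replicate was left out. Ifit3 alone kept its call under every alternative but the fold threshold, and the number called was 1 without replicate 2, 3 or 5 and 3 without replicate 4. It was 1 without the replicate number as a block and 26 in a fit of only these 2 groups. The share of all genes called was not counted in those fits, and the 0.318% above belongs to the main fit alone.

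Against the cells at 0 h, which the 4 comparisons that follow share, more members were called higher than lower after 24 h at pH 7.4, and more lower than higher at pH 6.6. At pH 7.4 with IL-2, 18 were higher and 4 lower, against 29% and 30.9% of all genes, with a median log2 fold change of 0.23. At pH 7.4 without IL-2, 21 were higher and 8 lower, against 36.9% and 38.3% of all genes, with a median of 0.27. All 6 GTPases were higher in each, with medians of 1.00 and 1.19. Gbp2 was 217, 153, 210.0, 234 and 262 CPM at 0 h, and its log2 fold change was 1.44 ± 0.18 with IL-2 and 1.36 ± 0.18 without. Ifit3 was 3.25, 2.38, 4.25, 1.99 and 2.38 CPM at 0 h and was higher after 24 h without IL-2 (log2 fold change 2.05 ± 0.21, edgeR adjusted p = 2.96e-10) and with it (log2 fold change 0.56 ± 0.22, edgeR adjusted p = 0.0304), a call that ended without replicate 2 (0.48) or 4 (0.51) and without the replicate block (0.56). Isg15 was 8.69, 6.70, 10.4, 6.88 and 10.0 CPM at 0 h; it was not called at pH 7.4 with IL-2 (0.33 ± 0.16) and was lower without it (log2 fold change -1.77 ± 0.18, edgeR adjusted p = 2.21e-10).

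At pH 6.6 with IL-2, 8 members were higher than at 0 h and 26 lower, against 30.5% and 38.0% of all genes, with a median log2 fold change of -0.69. Without IL-2, 5 were higher and 26 lower, against 34.8% and 40.3%, with a median of -0.73. Isg15 (-2.90 ± 0.20 with IL-2 and -3.40 ± 0.21 without), Ifit1 (-3.28 ± 0.29 and -3.44 ± 0.29) and Oas2 (-2.21 ± 0.20 and -3.19 ± 0.21) lay below the starting cells. Gbp2 at pH 6.6 was not called against 0 h in either setting (0.08 ± 0.17 and -0.04 ± 0.17), nor was Ifit2 (-0.03 ± 0.14 and -0.13 ± 0.14). Gbp5 was higher than at 0 h in all 4 cultures compared, by 1.14 ± 0.12, 1.47 ± 0.12, 1.68 ± 0.12 and 1.69 ± 0.12 on the log2 scale at pH 7.4 and pH 6.6, with IL-2 first each time.

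The genes upstream of the members were read from a list of 23 ligands, receptors, kinases, relays and brakes, of which 21 were tested. At pH 6.6 against pH 7.4 with IL-2, 11 rose (52.4%) and 7 fell (33.3%), against 35.4% and 40.9% of all genes. Without IL-2 9 rose (42.9%) and 5 fell (23.8%), against 31.6% and 35.4%. Among the ligands, Ifnb1 had 0 counts in all 35 libraries and Ifna4 at most 2 counts in a library. Ifng, the gene of interferon-gamma, was 18.5, 25.2, 18.4, 30.5 and 24.1 CPM at pH 7.4 and 2.14, 2.60, 1.97, 9.09 and 4.66 CPM at pH 6.6 with IL-2, without overlap (log2 fold change -2.61 ± 0.27, edgeR adjusted p = 2.71e-10). Without IL-2 it was 5.91, 9.62, 2.96, 13.3 and 4.15 CPM and 0.421, 1.05, 0.454, 0.655 and 0.470 CPM (log2 fold change -3.47 ± 0.35, edgeR adjusted p = 5.25e-10). Ifng was higher with IL-2 at each pH, by 1.78 ± 0.25, 3.24 ± 0.27 and 2.64 ± 0.37 on the log2 scale at pH 7.4, pH 7 and pH 6.6. It was lower at pH 7 than at pH 7.4 without IL-2 (log2 fold change -1.28 ± 0.28, edgeR adjusted p = 0.00813) and not called there with IL-2 (0.18 ± 0.23).

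The receptor chains went the other way from Ifng. Ifngr1 was 379.5, 382, 415, 374 and 409 CPM at pH 7.4 and 1463, 1634, 1712, 1311 and 1449.8 CPM at pH 6.6 with IL-2 (log2 fold change 1.95 ± 0.09, edgeR adjusted p = 1.91e-19), and rose without IL-2 by 0.67 ± 0.08. Ifngr2 rose by 1.80 ± 0.12 and 1.24 ± 0.12, and Ifnar1 by 1.34 ± 0.08 and 0.50 ± 0.08, with and without IL-2. Ifnar2 rose with IL-2 (0.41 ± 0.07) and was not called without it (-0.07 ± 0.06). Of the receptor kinases, Jak1 (1.00 ± 0.07), Jak2 (0.88 ± 0.10) and Tyk2 (0.69 ± 0.11) rose with IL-2, and without it Jak2 rose (0.25 ± 0.10) while Jak1 (-0.08 ± 0.07) and Tyk2 (0.05 ± 0.11) were not called. Irf8, an interferon-responsive factor, was 240.2, 248, 218, 287 and 284 CPM and 69.7, 45.7, 31.2, 75.5 and 67.1 CPM with IL-2 (log2 fold change -2.17 ± 0.15, edgeR adjusted p = 7.07e-15), and 28.4, 27.2, 18.7, 28.7 and 25.2 CPM at pH 7.4 without IL-2, where acidity left it uncalled (-0.07 ± 0.15). The brakes divided: Socs1 fell in both settings (-0.84 ± 0.16 and -0.88 ± 0.17) and Socs3 rose in both (2.01 ± 0.19 and 0.57 ± 0.19).

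**Figure D5:**
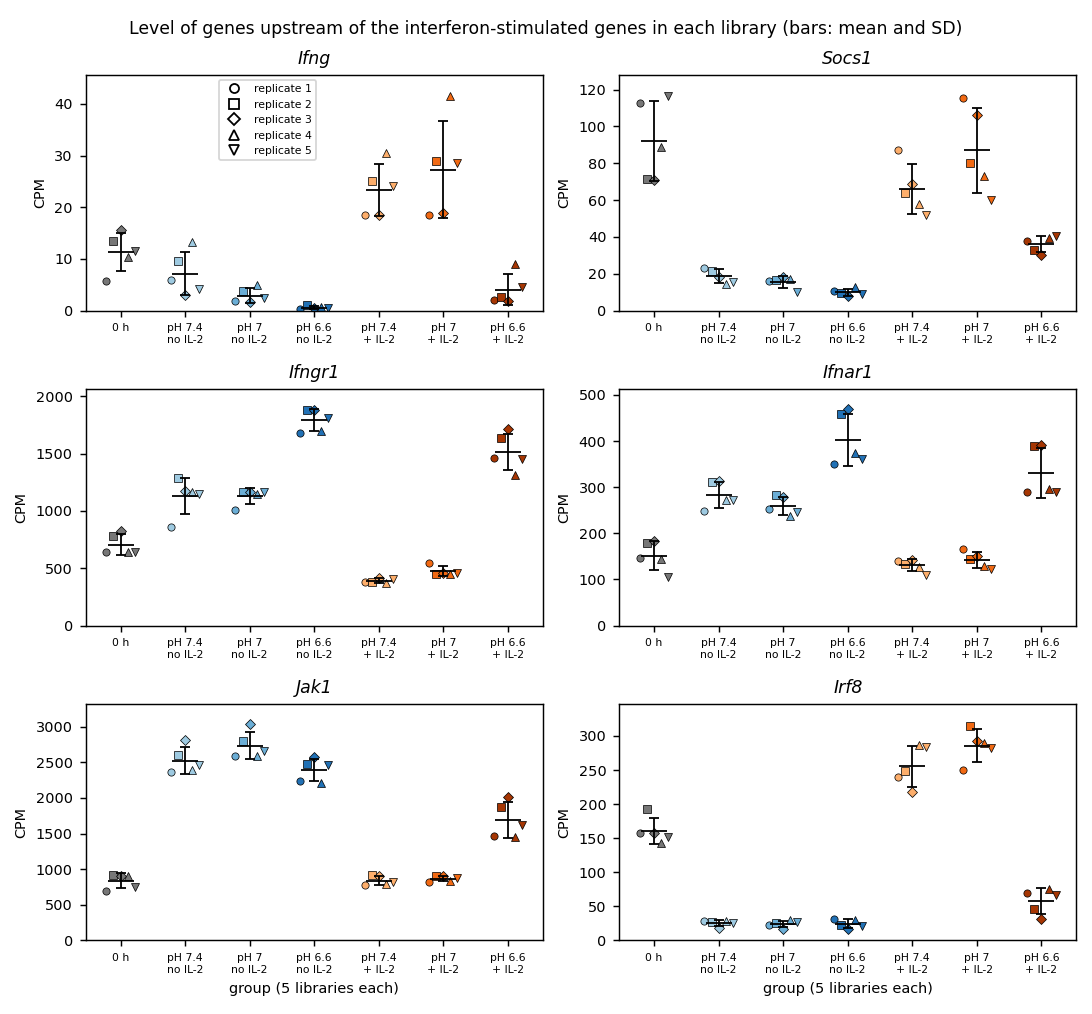
Level in CPM (y axes, each on its own linear scale) of Ifng, Socs1, Ifngr1, Ifnar1, Jak1 and Irf8 in each of the 5 libraries (points) of the 7 groups (x axes), with bars for the mean and SD. At pH 6.6, Ifng and Socs1 are lower and Ifngr1 and Ifnar1 higher than at pH 7.4, with and without IL-2.

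Interferon-stimulated genes outside the 39 were read from a second list of 48 names, of which 47 were tested. At pH 6.6 against pH 7.4 with IL-2, 29 fell and 8 rose, with a median log2 fold change of -0.46, and without IL-2 42 fell and 1 rose, with a median of -1.0. The largest falls with IL-2 among those called were of Ifi204 (-4.81 ± 0.23), a DNA-binding protein, Ifit3b (-2.76 ± 0.64), the copy of Ifit3, with only 6 counts in the 5 libraries at pH 6.6, and Iigp1 (-2.74 ± 0.28), a GTPase of the Irg family. Without the cytokine, Iigp1 was at -3.93 ± 0.29 and Ifi204 at -3.56 ± 0.22, while the only riser was Ifitm2, at 0.59 ± 0.13. The share lower was 61.7% with IL-2, against 40.9% of all genes, and 89.4% without it, against 35.4%; the 39 members stood at 84.6% and 87.2%, and the difference between the lists was not tested.

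The members were also grouped by the promoter letters shown above. Of the 15 with a response element core, 13 fell and 1 rose at pH 6.6 with IL-2, with a median log2 fold change of -0.86. Of the 15 with a window but no core, 11 fell and 3 rose, with a median of -0.62. Over all tested genes 40.9% were called lower and 35.4% higher in that comparison. Without IL-2 the medians were -1.06 with the core, where 13 fell, and -1.16 with no core, where 12 fell, against 35.4% of all genes lower. Of the 8 with a GAS match 6 fell with IL-2 and 6 without it, with medians of -1.06 and -0.48. Of the 22 with no GAS match 18 and 19 fell, with medians of -0.72 and -1.28. With IL-2, 1 with a GAS match and 3 with none rose. The same shares of all genes stand beside these counts. These are descriptions of windows of fixed length, and no test was made between the sets.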

How the data were processed

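RNA was measured by stranded mRNA sequencing in 35 libraries. The authors deposited raw read counts per Ensembl gene; the submitters' processing notes name cutadapt 1.8, STAR 2.5.2b, HTSeq 0.6.1 and the build GRCm38, while the annotation release and the strand setting of the counting are not given in the sources used here. Groups and replicate numbers came from the sample titles. Symbols were found for 48349 of 48709 gene IDs, and Cgas was listed under its older symbol. Reads of no gene (median 7.42%), ambiguous reads (0.922%) and alignments to several places (37.1%) were set outside library sizes, each as a share of all entries of a table; genes with near copies therefore lost reads. Precision is limited by 16721319 to 34033340 reads on genes per library.

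Genes passing edgeR's filterByExpr (minimum count 10) were scaled by TMM and fitted in 1 edgeR quasi-likelihood model (R 4.3.3, edgeR 4.0.16, limma 3.58.1) of all 35 libraries with the replicate number as a block. Tests were two-sided, p-values were adjusted by Benjamini-Hochberg over all 13819 genes, and a call is an adjusted p under 0.05. The standard error of a log2 fold change is its size over the square root of the F statistic. Mean log2 CPM used a prior count of 2, and CPM in the text are TMM-scaled. The replicate numbers, titled n1 to n5, were taken as pairing the libraries: deviations from group means correlated over 0.1 in 95 of 105 same-numbered pairs, and in all 5 pairs at pH 6.6 and pH 7.4 with IL-2 (0.198 to 0.416), against a median of -0.0743 for pairs of different numbers. No 2 libraries of a group agreed within sampling noise in 70 pairs compared (lowest chi-square per degree of freedom 6.65). The model was tested on simulated counts of the pH 6.6 comparison with IL-2 (13404 genes), where 40 of 50 genes changed by 0.5 on the log2 scale and 48 of 50 changed by 1 were recovered. There were 12 false calls. The simulated counts had no replicate effect and few changed genes, so recovery where most genes change, as in the data, was not tested.

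The members, gene lists and tests were chosen with earlier results of these data known, and 1 gene of the lists is not reported here. Values in every library are given for the 2 members of each role group with the largest pH 6.6 effect with IL-2 or interaction; Bst2, Ifit3, Irf1, Dtx3l and Gbp5 were added after their values were seen. Alternatives were DESeq2 1.42.0, RLE size factors, a looser and a stricter count filter, no replicate block, only the groups compared, a fold threshold, and leaving out each replicate.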

Additional observations from a re-analysis of the deposited data

Results flagged for a closer look

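Among 119 groups of 5 libraries checked for the 17 members whose values are given in full, 16 held a single library far from the other 4. Chance alone would give about 1 in 20 if the groups were independent. They are not, because all members are read in the same libraries. Bst2, Ifit3, Irf1, Dtx3l and Gbp5 were also added after their values were seen, so the 16 cannot be set against that share. Of the 16 far libraries, 13 were replicate 1. Its CPM were 16.6 for Ifit1, 25.2 for Oasl2, 14.8 for Isg15, 9.06 for Ifit3, 439 for Dtx3l, 154 for Gbp5, 1189 for Igtp and 1095 for Gbp2 at pH 7 with IL-2, 55.4 for Usp18, 99.2 for Gbp5 and 753 for Gbp2 at pH 7.4 with IL-2, and 15.8 and 11.7 for Usp18 at pH 6.6 with and without IL-2. In each case it was the highest of its group. The other 3 were Ifit1 in replicate 3 at 0 h (15.5 CPM, the highest), Bst2 in replicate 2 at pH 7 with IL-2 (108.9 CPM, the highest) and Oasl2 in replicate 5 at pH 7 without IL-2 (3.39 CPM, the lowest). Without replicate 1, 34 members were called at pH 6.6 against pH 7.4 with IL-2 and 33 without IL-2, against 37 and 34 with all 5.

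For 20 members the effect of pH 6.6 differed between cells with and without IL-2, by the interaction in edgeR's quasi-likelihood test. Such a difference was common: over all tested genes 34.3% had an interaction above 0 and 32.8% below. It was above 0 for Ifit3 (1.86), Irf9 (1.16), Rtp4 (0.96), Rsad2 (0.79), Samd9l (0.73), Parp14 (0.67), Ifih1 (0.67), Dtx3l (0.61), Ifit2 (0.58), Irf1 (0.55), Irgm1 (0.55), Xaf1 (0.54), Zbp1 (0.52), Irf7 (0.44) and Ddx58 (0.23), all on the log2 scale. It was below 0 for Isg15 (-1.59), Bst2 (-1.47), Usp18 (-1.06), Ifi35 (-0.53) and Dhx58 (-0.46). Dtx3l rose with IL-2 and was not called without it. The interactions of Ddx58, Irf1, Irf7, Ifit2, Irgm1, Zbp1, Dhx58 and Rsad2 were not called when 1 or more of the replicates was left out in turn.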

How the results depend on the processing

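No value changed sign under any alternative among members that were called. At pH 6.6 against pH 7.4, 34 to 35 members were called with IL-2 and 33 to 34 without IL-2 when a replicate was left out, against 37 and 34. A threshold of at least 1 on the absolute log2 fold change left 17 and 22 called there, 0 and 1 at pH 7 against pH 7.4 with and without IL-2, 5, 11 and 1 for IL-2 at pH 7.4, pH 7 and pH 6.6, 5 for the interaction, and 6, 10, 15 and 20 against 0 h at pH 7.4 with and without and pH 6.6 with and without IL-2, by construction. A fit of only the groups compared called 20 (pH 7 with IL-2), 26 (pH 7 without IL-2) and 20 (IL-2 at pH 6.6), against 7, 8 and 13. The cause was not tested. The shares of all genes given above are those of the main fit, and none was counted under an alternative or the fold threshold. The looser filter called 4 at pH 7 without IL-2. Leaving out 1 replicate gave 3 to 7 and 1 to 8 at pH 7 with and without IL-2, 21 to 26, 25 to 27 and 10 to 13 for IL-2 at the 3 pH values, 15 to 25 for the interaction and, in the order above, 18 to 21, 27 to 32, 30 to 33 and 30 to 32 against 0 h. Without the replicate block, 1 member was called at pH 7 without IL-2 against 8 with the block, and the other 11 counts moved by less than 1.5 times (35 and 33 at pH 6.6 with and without IL-2). DESeq2 and RLE size factors kept every count within 1.5 times. One alternative moved the median of all genes by over 0.1, by 0.10 in the interaction.

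Depth limited the members with few reads at pH 6.6, such as Oasl1 with 4 to 16 counts per library; 2 such members were not tested under the stricter filter. What a replicate number marks is not given in the sources used here. Counts cover RNA of a whole culture, so shifts in cell state or survival and changes within cells cannot be told apart. Ifit3 shares sequence with Ifit3b and may have lost reads, and overlapping genes such as Parp9 and Dtx3l may exchange reads.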

Other observations

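Genes of MHC class I presentation, a neighbouring programme that interferon raises only in part, were read from a list of 14, apart from the TAP chains. At pH 6.6 against pH 7.4 with IL-2, 11 fell (78.6%) and 2 rose (14.3%), against 40.9% and 35.4% of all genes, with a median log2 fold change of -0.81. The 2 that rose were the class I heavy chains H2-K1 (log2 fold change 0.68 ± 0.08, edgeR adjusted p = 1.03e-08) and H2-D1 (log2 fold change 0.63 ± 0.09, edgeR adjusted p = 1.62e-07). The largest falls were of Calr (log2 fold change -1.58 ± 0.06, edgeR adjusted p = 5.69e-21) and Pdia3 (log2 fold change -1.25 ± 0.11, edgeR adjusted p = 1.52e-12), which help fold the heavy chain in the endoplasmic reticulum, and of Psme2 (log2 fold change -1.38 ± 0.11, edgeR adjusted p = 4.53e-13), a subunit of the proteasome activator. In the absence of IL-2, 5 rose (35.7%) and 3 fell (21.4%), against 31.6% and 35.4% of all genes, and Calr (log2 fold change 0.88 ± 0.06, edgeR adjusted p = 3.16e-14) and Pdia3 (log2 fold change 0.30 ± 0.10, edgeR adjusted p = 0.013) were among those that rose. H2-K1 (0.53 ± 0.08) and H2-D1 (0.40 ± 0.09) rose without IL-2 too. The immunoproteasome subunit Psmb8 fell with IL-2 (-0.82 ± 0.10) and was not called without it (-0.06 ± 0.10). At pH 7.4, 10 of the 14 were higher with IL-2, against 39.3% of all genes, with a median of 0.92, in libraries that these comparisons share, and the interaction was below 0 for 9 and above 0 for 1, against 32.8% and 34.3% of all genes.

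Cgas, the sensor of cytosolic DNA, was 41.9, 38.8, 41.7, 33.8 and 29.8 CPM in replicates 1 to 5 at pH 7.4 with IL-2 and 8.84, 10.4, 12.5, 10.6 and 11.6 CPM at pH 6.6 with IL-2, without overlap (log2 fold change -1.77 ± 0.13, edgeR adjusted p = 3.36e-14). Without IL-2 it was 5.69, 5.65, 4.45, 5.13 and 5.05 CPM at pH 7.4 and 5.26, 9.02, 8.59, 4.46 and 5.12 CPM at pH 6.6 and was not called (log2 fold change 0.30 ± 0.14, edgeR adjusted p = 0.0616). Ikbke, an interferon-inducible kinase upstream of IRF3, rose with IL-2 (log2 fold change 1.52 ± 0.12, edgeR adjusted p = 1.51e-13) and was not called without it (log2 fold change 0.01 ± 0.11, edgeR adjusted p = 0.924).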
